A study of Mus musculus with 12 samples.

Results

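The 10 genes studied here govern entry into the cell cycle, and they were followed across 12 mouse oral tumours. They are the D cyclins Ccnd1, Ccnd2 and Ccnd3, the kinases Cdk4 and Cdk6, and the CDK inhibitors Cdkn1a, Cdkn1b, Cdkn2a, Cdkn2b and Cdkn2c. They were taken by gene symbol, with every probe of the array that the platform annotation pairs with 1 of these symbols. The array had 19 such probes for 9 of the 10 genes, among 25697 probes and 16593 named genes in all, and no probe was paired with Cdk4. Of the 19 probes, 13 probes of 7 genes were detected above background on at least 6 of the 12 arrays and could be tested. The tumours were labelled KHR (6 tumours) and KHR-NICD (6 tumours), were collected after 21 days of growth and arose in F1 animals of a cross between FVB and C57BL/6. What KHR stands for, which alleles lie behind it, how NICD was introduced and how old the mice were is not in the labels, nor is it stated whether each tumour had its own host. P-values therefore measure the spread between these samples. NICD usually stands for the intracellular domain of Notch, which acts in the nucleus together with the DNA-binding protein RBPJ.

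D cyclins are made in response to growth signals and switch on CDK4 and CDK6, which phosphorylate the retinoblastoma protein and release E2F transcription factors, so that genes of DNA replication are transcribed. The INK4 proteins, encoded by Cdkn2a, Cdkn2b and Cdkn2c, bind CDK4 and CDK6 and keep them from the cyclin. The CIP/KIP proteins, encoded by Cdkn1a and Cdkn1b, bind cyclin-CDK complexes and block those of CDK2 most strongly. In squamous tumours of the mouth in people, CCND1 is often amplified and CDKN2A is often lost.

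Cdkn2a makes an INK4 protein, p16Ink4a, from 1 start and an unrelated protein, p19Arf, which stabilises p53, from a start farther upstream. RefSeq (GRCm38.p6) placed the starts 12427 bases apart. The 250 bases before each are shown because both probes of the gene moved together across the tumours, and the platform annotation pairs both with the same RefSeq transcript. The window of Cdkn1a shown is the only one of its 2 listed windows with a match to the core letters bound by RBPJ, TGGGAA, which were searched on both strands and are in capitals (as TTCCCA where the match is on the minus strand). Each sequence runs 5′ to 3′ on the strand of the gene.
Cdkn2a upstream start, chr4:89294620-89294869, minus strand: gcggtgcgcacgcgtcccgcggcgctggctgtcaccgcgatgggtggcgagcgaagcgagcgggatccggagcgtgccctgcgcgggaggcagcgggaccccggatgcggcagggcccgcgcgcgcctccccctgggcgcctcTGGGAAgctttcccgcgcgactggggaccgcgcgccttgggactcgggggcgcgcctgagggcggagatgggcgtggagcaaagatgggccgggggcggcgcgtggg
Cdkn2a downstream start, chr4:89282193-89282442, minus strand: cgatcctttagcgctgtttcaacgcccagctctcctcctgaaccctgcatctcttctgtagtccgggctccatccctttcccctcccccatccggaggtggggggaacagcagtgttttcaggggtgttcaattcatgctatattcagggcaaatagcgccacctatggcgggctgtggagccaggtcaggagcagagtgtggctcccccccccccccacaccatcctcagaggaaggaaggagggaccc
Cdkn1a second window, chr17:29093519-29093768, plus strand: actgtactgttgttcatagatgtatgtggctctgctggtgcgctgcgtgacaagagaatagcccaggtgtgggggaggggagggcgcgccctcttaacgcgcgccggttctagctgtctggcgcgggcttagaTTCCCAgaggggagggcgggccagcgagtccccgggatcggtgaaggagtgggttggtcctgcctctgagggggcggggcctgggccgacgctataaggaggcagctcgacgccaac

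The RefSeq windows available here numbered 12 and covered 8 of the 10 genes. There was no window for Ccnd1 or Ccnd2, so neither gene could be searched for the letters below. The letters TGGGAA occurred in 3 of the 12 windows (25%), those of Cdk4, Cdkn1a and the upstream start of Cdkn2a, against 21.6% of 32851 mouse windows of the same length. The match lay 107 to 102 bases before the upstream start of Cdkn2a and 117 to 112 bases before the downstream start of Cdkn1a. The AP-1 letters TGANTCA, searched likewise, were in 0 of the 12 windows against 6.75% of all windows. These matches describe letters in a window and were not tested as binding sites.

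Signals were normalized together and are given as log2 intensities, on which a difference of 1 is a doubling. Levels of different probes are not comparable with each other on this array, so each probe is compared with itself across tumours. The share of probes detected on an array was 43.6% to 48.1%, the median raw signal 140 to 178 and the mean bead count of a probe 33.0 to 37.4. Basal keratinocyte markers were measured for 9 of 10 listed genes and suprabasal keratinocyte markers for 10 of 12, while of 9 listed markers of T and NK cells 8 had a probe and none was detected on more than 4 of the 12 arrays. Eif2s3y, a gene of the Y chromosome, was detected in KHR tumours 4, 5 and 6 and KHR-NICD tumours 1 and 4 and in no other tumour. The labels do not mention this division of the tumours, which is read from the data and does not follow tumour type. Xist divided the same tumours in the opposite direction. On probe ILMN_3123341 it stood at 6.62 or above without Eif2s3y and at 5.11 or below with it. On probe ILMN_3022688 these bounds were closer, at 4.82 and 4.70. Whether the division marks the sex of host or tumour was not tested. Skeletal muscle and hair follicle keratin transcripts moved with the division and their values are given where a result touches them. In such bulk samples, fewer cells of a type and less RNA per cell cannot be told apart.

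The design sets tumours with the NICD label against tumours without it. None of the 13 member probes passed limma's test at an adjusted p of 0.05, with 8 of all 11721 kept probes called (0.0683%; 3 higher and 5 lower). At an unadjusted p under 0.05 stood 3 of the 13 member probes, against 13.2% of all kept probes. The difference was positive for 9 member probes and negative for 4, with a median of +0.11 on the log2 scale against +0.01 over all kept probes. Ccnd2 and Cdkn1a, which stood farthest from 0 relative to their error, lay in opposite directions.

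**Figure D1:**
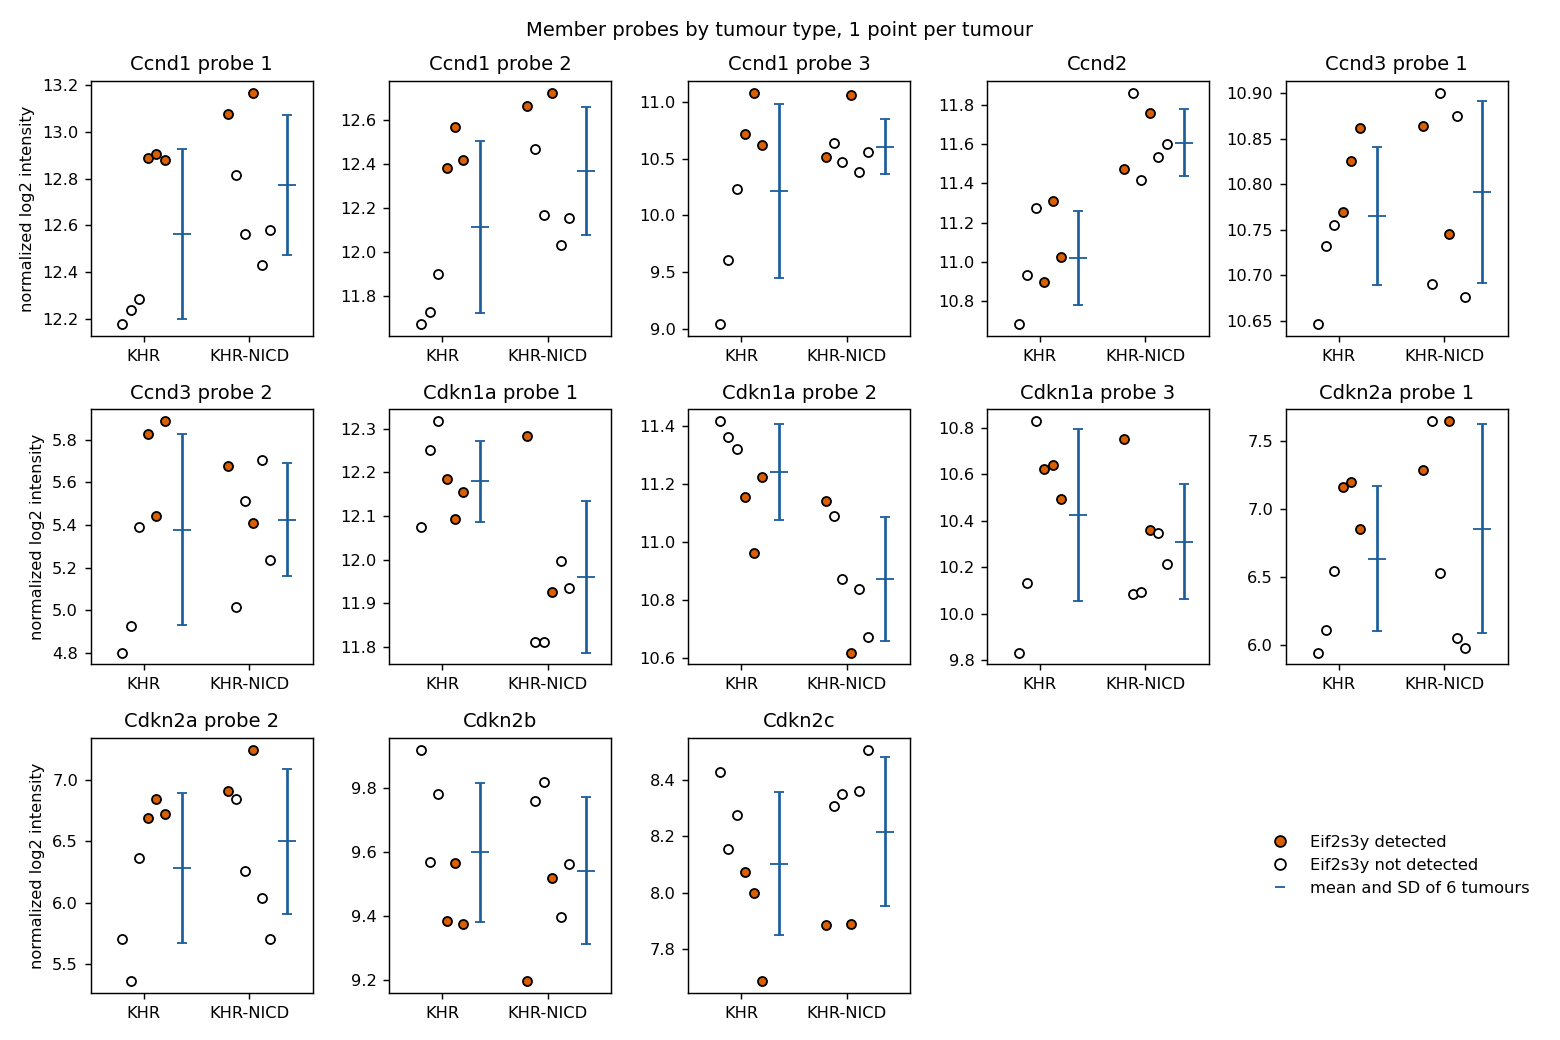
Normalized log2 intensity (y axis) of the 13 tested member probes in the 6 KHR and 6 KHR-NICD tumours, 1 point per tumour, filled where Eif2s3y was detected; the bars give the mean and SD of 6 tumours, and each panel has its own y range. Ccnd2 is the probe whose groups do not overlap, and the 5 filled points lie above the 7 open ones for Ccnd1 probe 1 and below them for Cdkn2c.

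Ccnd2, the D cyclin that growth factors and cytokines induce in many lymphoid and gonadal cells, was read by 1 probe (ILMN_2700166). Its log2 intensity in KHR tumours ran from 10.68 through a median of 10.98 to 11.31, and in KHR-NICD tumours from 11.42 through 11.57 to 11.86. All 6 KHR-NICD tumours lay above all 6 KHR tumours, and Ccnd2 was the only member whose groups did not overlap, as was so for 161 of all kept probes (1.37%). The means were 11.02 ± 0.24 and 11.61 ± 0.17 (SD, n = 6 each). They differed by +0.59 (standard error, SE, 0.12; 95% interval 0.33 to 0.85), or 1.5-fold. It missed the threshold after adjustment over all probes (limma adjusted p = 0.0745).

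The Ccnd2 difference was much the same in the tumours with and without Eif2s3y. Where Eif2s3y was not detected, the mean was 10.96 in 3 KHR tumours and 11.60 in 4 KHR-NICD tumours, a difference of +0.64 (limma adjusted p = 0.165). Where it was detected, the mean was 11.08 in 3 KHR tumours and 11.62 in 2 KHR-NICD tumours, a difference of +0.54 (limma adjusted p = 0.12). The size of the difference held, while its place against the threshold depended on the terms of the fit. With Eif2s3y detection as a covariate the Ccnd2 difference was +0.60 and passed (limma adjusted p = 0.0317), in a fit that called 2.03% of all kept probes. With the skeletal muscle score, the mean log2 level of 13 muscle genes, as a covariate it was +0.58 and passed (limma adjusted p = 0.0339), in a fit that called 0.981%. That score averaged 8.57 ± 1.43 in the KHR and 8.43 ± 0.90 in the KHR-NICD set (SD, n = 6 each), from a summed intensity of 2215 to 25884 and of 3316 to 16745. With array weights the Ccnd2 difference was +0.53 and passed (limma adjusted p = 0.040), in a fit that called 125 of all kept probes. With the basal keratinocyte score as a covariate it was +0.56 and did not pass (limma adjusted p = 0.224). No probe of the array passed in that fit, so the miss is not particular to Ccnd2. The basal keratinocyte score itself averaged 11.42 ± 0.05 in the KHR and 11.32 ± 0.10 in the KHR-NICD set (SD, n = 6 each), from a summed intensity of 49474 to 62968 and of 50520 to 60013. Leaving out each tumour in turn gave adjusted p-values from 0.0921 to 0.16.

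Ccnd1, the D cyclin most closely tied to growth factor signalling in epithelia, was read by 3 probes, all detected on 12 of 12 arrays. For probe 1 (ILMN_1221503) the KHR tumours ran from 12.18 through 12.58 to 12.91 and the KHR-NICD tumours from 12.43 through 12.70 to 13.17. For probe 2 (ILMN_2601471) they ran from 11.67 through 12.14 to 12.57 and from 12.03 through 12.32 to 12.73. For probe 3 (ILMN_2669793) they ran from 9.04 through 10.43 to 11.09 and from 10.38 through 10.54 to 11.07. On each probe the groups overlapped and the KHR tumours fell into a low and a high set, with tumours 1, 2 and 3 below tumours 4, 5 and 6. The low set lacked Eif2s3y and the high set had it, so within KHR this division cannot be told apart from replicate order.

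The differences of the 3 Ccnd1 probes were +0.21, +0.26 and +0.39, with limma adjusted p-values of 0.655, 0.581 and 0.603. With array weights the sign of probe 1 turned, at -0.03. For probe 1 the 95% interval ran from -0.17 to 0.59, which leaves room for no difference and for one as large as that of Ccnd2. KHR tumour 1 was the lowest of the 12 tumours on all 3 probes. Across the 12 tumours, probe 1 correlated with probe 2 at r = 0.986 and with probe 3 at r = 0.823. With Eif2s3y detection as a covariate the differences were +0.31, +0.36 and +0.52, with limma adjusted p-values of 0.0599, 0.0614 and 0.206.

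Ccnd3, the most widely transcribed of the D cyclins, was nearly level between the tumour types. For probe 1 (ILMN_3131063) the KHR tumours ran from 10.65 through 10.76 to 10.86 and the KHR-NICD tumours from 10.68 through 10.80 to 10.90. The difference of +0.03 had a 95% interval from -0.13 to 0.19 (limma adjusted p = 0.918), and all 12 tumours lay within 0.26 of each other. This interval lies below the lower bound of the Ccnd2 interval, but a difference between these genes was not tested. Probe 2 (ILMN_1246473) was near background, detected in 4 KHR and 3 KHR-NICD tumours, and differed by +0.05 (limma adjusted p = 0.946). Probe 3 (ILMN_2661849) was detected on 0 of 12 arrays.

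Cdk6, 1 of the 2 kinases that D cyclins switch on, had 1 probe (ILMN_1259714), which was detected on 0 of 12 arrays. Its raw signal ran from 135 to 165, so its level has an upper bound here and no fold. Cdkn1b, which encodes the CIP/KIP inhibitor p27, had 3 probes, and each was likewise detected on 0 of 12 arrays. Their raw signals ran from 105 to 157. No difference in Cdk6 or Cdkn1b was detectable at this signal, and transcripts of either may be present below the level that the array separates from background.

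Cdkn1a encodes p21, the CIP/KIP inhibitor that p53 induces, and in keratinocytes of the mouse it is also known as a target of Notch. On probe 1 (ILMN_2634083) the KHR tumours ran from 12.07 through 12.17 to 12.32 and the KHR-NICD tumours from 11.81 through 11.93 to 12.28. Below every KHR tumour lay 5 of the 6 KHR-NICD tumours, and KHR-NICD tumour 1 was the exception. The difference was -0.22 (SE 0.09; limma unadjusted p = 0.0332, adjusted p = 0.332).

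On Cdkn1a probe 2 (ILMN_2846775) the KHR tumours ran from 10.96 through 11.27 to 11.42 and the KHR-NICD tumours from 10.62 through 10.86 to 11.14. Here 4 of the 6 KHR-NICD tumours lay below every KHR tumour. The difference was -0.37 (SE 0.11, 95% interval -0.61 to -0.13; limma unadjusted p = 0.00585, adjusted p = 0.182). With Eif2s3y detection as a covariate it was -0.39, still short of the threshold (limma adjusted p = 0.0789). Probe 3 (ILMN_2846776) ran from 9.83 through 10.56 to 10.83 and from 10.08 through 10.28 to 10.75, a difference of -0.12 (limma adjusted p = 0.821). The probes did not order the tumours alike. KHR tumour 1 was the highest of 12 on probe 2 at 11.42 and the lowest of 12 on probe 3 at 9.83. Probes 2 and 3 correlated at r = 0.0219 across the 12 tumours, while probe 1 correlated with them at r = 0.655 and r = 0.616. The difference stayed negative on all 3 probes under every alternative tried for the tumour types, but its size varied. In the tumours with Eif2s3y alone it was -0.04, -0.23 and -0.03 on probes 1, 2 and 3. In those without Eif2s3y it was -0.33, -0.50 and -0.08.

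The INK4 genes did not differ detectably between the tumour types. The signal of the Cdkn2a probes was not assigned to p16Ink4a or p19Arf. On Cdkn2a probe 1 (ILMN_1226950) the KHR tumours ran from 5.95 through 6.70 to 7.20 and the KHR-NICD tumours from 5.98 through 6.91 to 7.65. The difference of +0.22 had a 95% interval from -0.50 to 0.94 (limma adjusted p = 0.833), the widest among the member probes. Probe 2 (ILMN_1221177) ran from 5.36 through 6.52 to 6.84 and from 5.71 through 6.55 to 7.25 and also differed by +0.22 (limma adjusted p = 0.809). With array weights both signs turned, at -0.20 and -0.19. Both probes were detected on 12 of 12 arrays and correlated at r = 0.932, and spanned 1.7 and 1.89 log2 units from the lowest to the highest tumour.

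Cdkn2b, which encodes the INK4 protein that TGF-beta induces, lies beside Cdkn2a. Its probe (ILMN_1227240) ran from 9.37 through 9.57 to 9.92 in KHR tumours and from 9.19 through 9.54 to 9.82 in KHR-NICD tumours, a difference of -0.06 (limma adjusted p = 0.89). Cdkn2c, which encodes the INK4 protein p18, was tested on 1 probe (ILMN_1228366). It ran from 7.69 through 8.12 to 8.43 and from 7.88 through 8.33 to 8.51, a difference of +0.11 (limma adjusted p = 0.785). The groups overlapped for both genes. A second Cdkn2c probe (ILMN_1215651) was detected on 4 of 12 arrays, 2 in each group, and was not tested.

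The members were next read along the division by Eif2s3y detection, with tumour type as a term of the fit. Eif2s3y stood at 8.18 or above in 5 tumours and at 4.92 or below in 7. Of the 13 member probes 6 passed limma's test at an adjusted p of 0.05, 5 of them higher and 1 lower where Eif2s3y was detected, in a comparison that called 2103 of all kept probes (17.9%; 1042 higher and 1061 lower). They belonged to Ccnd1, Cdkn2a and Cdkn2c. A large part of the array moved along this division, so the member count stands against a high background.

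**Figure D2:**
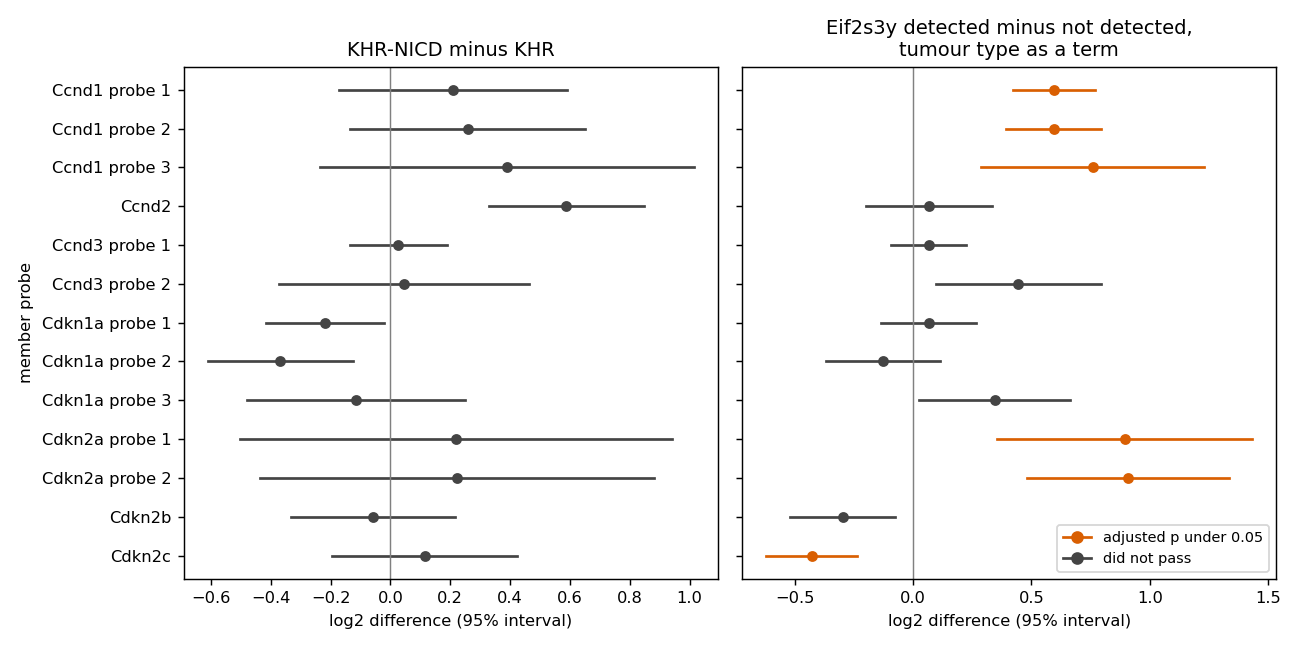
Log2 difference with its 95% interval (x axis) for each of the 13 tested member probes (y axis): KHR-NICD minus KHR on the left, and Eif2s3y detected minus not detected with tumour type as a term on the right, in orange where limma's adjusted p was under 0.05. No probe passed on the left, where Ccnd2 stood at +0.59, and 6 passed on the right, the 3 of Ccnd1, the 2 of Cdkn2a and that of Cdkn2c.

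Ccnd1 rose on all 3 probes in the tumours with Eif2s3y. Probe 1 stood at 12.88, 12.89, 12.91, 13.08 and 13.17 in the 5 tumours with Eif2s3y and ran from 12.18 through 12.43 to 12.82 in the 7 without. The sets did not overlap, and the difference was +0.60 (SE 0.08), or 1.51-fold (limma adjusted p = 0.00104). Probe 2 ran from 12.38 to 12.73 with Eif2s3y and from 11.67 to 12.47 without, overlapping through KHR-NICD tumour 2 alone, and differed by +0.59 (limma adjusted p = 0.00184). Probe 3 differed by +0.76 (limma adjusted p = 0.0309), a call that was lost, at adjusted p-values from 0.0589 to 0.0685, without KHR tumour 2, 4, 5 or 6 or KHR-NICD tumour 4, and at 0.0633 with no filter on dim probes. Ccnd2, by contrast, differed by +0.07 along this division (limma adjusted p = 0.748) and Ccnd3 probe 1 by +0.07 (limma adjusted p = 0.562). Whether Ccnd1 differs from Ccnd2 in this respect was not tested.

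Cdkn2a rose on both probes in the tumours with Eif2s3y. Whether this concerns p16Ink4a or p19Arf was not tested. Probe 1 stood at 6.86, 7.17, 7.20, 7.29 and 7.65 in the 5 tumours with Eif2s3y and ran from 5.95 through 6.11 to 7.65 in the 7 without. The tumour without Eif2s3y that reached 7.65 was KHR-NICD tumour 2, and the other 6 lay at 6.55 or below. The difference was +0.89 (SE 0.25), or 1.86-fold (limma adjusted p = 0.0269). This call was lost, at adjusted p-values from 0.054 to 0.0762, without KHR tumour 1, 2, 4 or 5 or KHR-NICD tumour 4, and at 0.0573 with no filter on dim probes. Probe 2 ran from 6.68 to 7.25 with Eif2s3y and from 5.36 to 6.84 without, a difference of +0.91 (SE 0.20; limma adjusted p = 0.00838), which held without any 1 tumour.

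Cdkn2c fell in the same tumours. Its probe stood at 7.69, 7.88, 7.89, 8.0 and 8.07 in the 5 tumours with Eif2s3y and ran from 8.16 through 8.35 to 8.51 in the 7 without. The sets did not overlap, and the difference was -0.43 (SE 0.09; limma adjusted p = 0.00693). Cdkn2b lay at -0.30 and did not pass (limma adjusted p = 0.0617), although it passed without KHR-NICD tumour 5 (limma adjusted p = 0.0412). It also passed with no background correction, an offset of 50, an intensity trend or median centring (limma adjusted p = 0.0408, 0.0496, 0.0492 and 0.0228). Cdkn1a stood at +0.07, -0.13 and +0.34 on its 3 probes, none of which passed. Its probe 3 passed without KHR tumour 3, at +0.48 (limma adjusted p = 0.0115).

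Markers of several cell types moved with the same division, those of muscle and hair follicle by the widest margin. Genes counted here as risen or fallen passed limma's test at an adjusted p of 0.05, as did 17.9% of all kept probes. The skeletal muscle score was 9.20 ± 0.84 (SD, n = 7) without Eif2s3y and 7.52 ± 0.67 (SD, n = 5) with it, and 12 of the 13 measured muscle genes, of 15 listed, fell. The summed intensity of these genes ran from 4535 to 25884 in the tumours without Eif2s3y and from 2215 to 6811 in those with it. The hair follicle keratin score was 9.24 ± 0.95 (SD, n = 7) without and 7.35 ± 0.58 (SD, n = 5) with Eif2s3y, all 6 measured genes of 11 listed fell, and their summed intensity ran from 1881 to 12918 and from 836 to 2614. Endothelial markers, 8 of 10 listed, stood at 7.56 ± 0.18 without and 7.89 ± 0.16 with Eif2s3y (SD, n = 7 and 5), and 3 rose. Suprabasal keratinocyte markers, 10 of 12 listed, stood at 12.61 ± 0.12 without and 12.32 ± 0.09 with Eif2s3y (SD, n = 7 and 5). Of these, 3 fell, Krt4 at -1.79, Ivl at -1.20 and Krt1 at -0.51. The median difference over the list was +0.05, so the lower score does not describe the list as a whole. Neutrophil markers, 5 of 8 listed, stood at 9.18 ± 0.21 without and 9.51 ± 0.18 with Eif2s3y (SD, n = 7 and 5). Of these, 2 rose, Retnlg at +1.10 and Csf3r at +0.62, while the median difference over the list was +0.01. Basal keratinocyte markers, 9 of 10 listed, stood at 11.36 ± 0.11 without and 11.38 ± 0.06 with Eif2s3y (SD, n = 7 and 5). Of these, 3 rose, Lamb3 at +0.55, Itgb4 at +0.53 and Cdh3 at +0.24, and 1 fell, Krt15 at -2.05. Fibroblast markers, 10 of 10 listed, stood at 8.52 ± 0.25 without and 8.45 ± 0.36 with Eif2s3y (SD, n = 7 and 5). Among them 1 rose, Col1a1 at +0.85, and 1 fell, Dcn at -1.08. Macrophage and dendritic markers, 6 of 12 listed, stood at 7.75 ± 0.26 without and 7.68 ± 0.23 with Eif2s3y (SD, n = 7 and 5). Among them 1 rose, Cd14 at +0.98. The part of these cell types in the member differences was not tested here.

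With the muscle score as a further term, none of the 13 member probes passed along the Eif2s3y division, in a fit that called 32 of all kept probes (0.273%). The differences kept their signs on the 6 probes, at +0.43, +0.41 and +0.22 for Ccnd1, +0.29 and +0.44 for Cdkn2a and -0.42 for Cdkn2c. The Ccnd1 and Cdkn2a differences were smaller in this fit, whereas that of Cdkn2c was nearly as large (limma adjusted p = 0.189). The error was wider on all 6 probes. The SE went from 0.08 to 0.12 for Ccnd1 probe 1, from 0.25 to 0.35 for Cdkn2a probe 1 and from 0.09 to 0.15 for Cdkn2c. The muscle score itself differed along the division, so the loss of the calls cannot be assigned to muscle content. The part of muscle content in these differences was not tested beyond these fits.

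**Figure D3:**
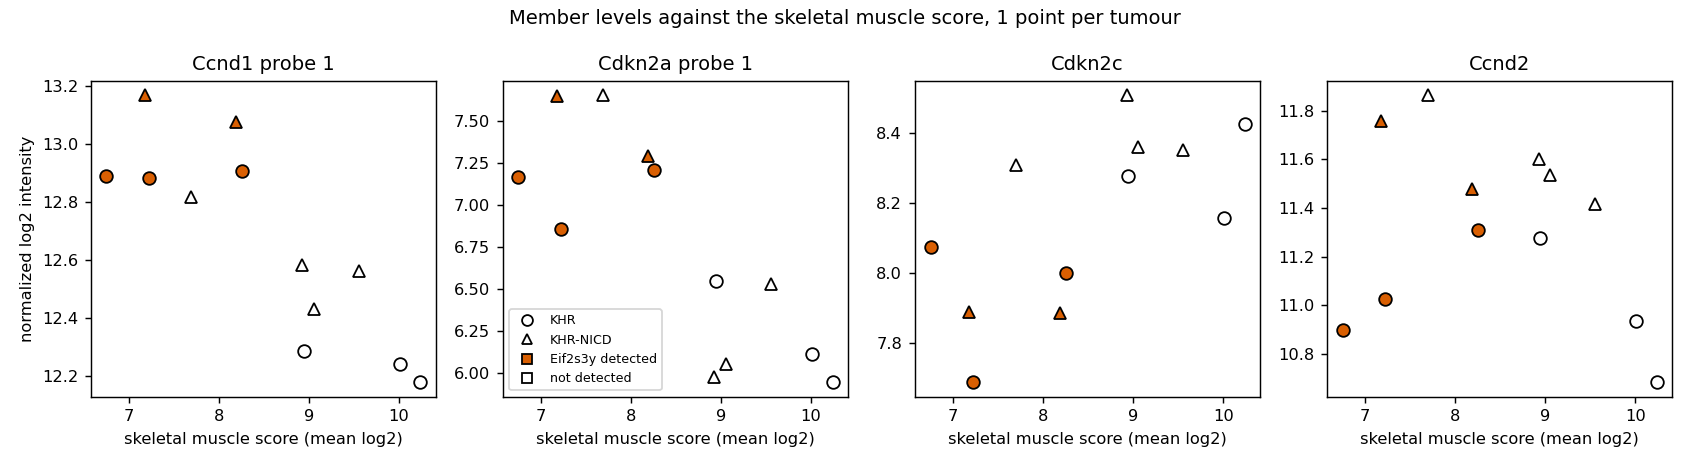
Normalized log2 intensity (y axis) of Ccnd1 probe 1, Cdkn2a probe 1, Cdkn2c and Ccnd2 against the skeletal muscle score, the mean log2 level of 13 muscle genes (x axis), 1 point per tumour, with circles for KHR, triangles for KHR-NICD and filled symbols where Eif2s3y was detected. Ccnd1 and Cdkn2a are lower in the tumours with more muscle transcript. Cdkn2c is higher in the open than in the filled symbols, and the open ones mostly have more muscle transcript. Within the open or the filled symbols alone, Cdkn2c shows no steady rise along the muscle score. A relation within these sets was not tested. For Ccnd2 all triangles lie above all circles, with muscle scores from 7.18 to 9.56 for the triangles and from 6.75 to 10.24 for the circles.

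Whether the tumour types differed by another amount in the 2 sets was tested as an interaction. None of the 13 member probes passed, in a test that called 29 of all kept probes (0.247%). Ccnd1 probe 3 came nearest. Its mean was 9.62 in 3 KHR and 10.51 in 4 KHR-NICD tumours without Eif2s3y, and 10.81 in 3 KHR and 10.79 in 2 KHR-NICD tumours with it. The within-set differences were thus +0.89 and -0.02, and the interaction was -0.91 (SE 0.37; limma unadjusted p = 0.0308, adjusted p = 0.231). Without KHR tumour 3 it was -1.21 and passed (limma adjusted p = 0.0459). Ccnd1 probe 1 gave +0.36 without and +0.23 with Eif2s3y, an interaction of -0.13 (limma adjusted p = 0.679).

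The genes around the members in the pathway were read in 7 lists. Of 96 listed genes 70 were measured, each by its brightest kept probe. None was called between the tumour types, against 0.0683% of all kept probes, and 14 of the 70 had an unadjusted p under 0.05, against 13.2%. The differences were positive for 41 genes and negative for 29, with a median of +0.05 against +0.01 over all kept probes.

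Downstream of the D cyclins, 11 of 13 retinoblastoma family and E2F-DP genes were measured, with a median of +0.05. E2f3, an activating E2F, stood at -0.24 and E2f5, which partners the pocket proteins in repression, at +0.18 (limma adjusted p = 0.35 and 0.366). Rb1 itself stood at +0.19 and E2f2 at +0.22. Of the cyclins E, A and B with CDK1 and CDK2, 4 of 8 were measured. Cdk1, the kinase of mitosis, averaged 9.48 ± 0.19 in the KHR tumours and 9.91 ± 0.25 in the KHR-NICD ones (SD, n = 6 each), a difference of +0.42 (limma adjusted p = 0.178). With Eif2s3y detection as a covariate Cdk1 stood at +0.49 and was the only pathway gene that passed (limma adjusted p = 0.0117). Ccne1, the cyclin that drives CDK2 at the start of replication, stood at -0.26 (limma adjusted p = 0.195), Ccne2 at +0.26 and Cdk2 at +0.06.

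Among 14 measured E2F-induced replication genes the median was -0.02 and the members lay on both sides. Mcm7, part of the replicative helicase, stood at +0.88 (SE 0.31; limma adjusted p = 0.257). Pcna, the sliding clamp, was detected on 6 of 12 arrays and lay near background in KHR tumours, at 5.03 ± 0.23 against 5.60 ± 0.36 (SD, n = 6 each; limma adjusted p = 0.16), so its difference has no firm size. Cdt1, which loads the helicase, stood at -0.22 (limma adjusted p = 0.28). The 2 measured inhibitors outside the members were Cdkn2d, which encodes the INK4 protein p19Ink4d, at +0.32, and Cdkn1c, which encodes p57, at +0.08 (limma adjusted p = 0.259 and 0.949). Of the CDK-activating kinase, CDC25 and CKS group 4 of 9 were measured, and Cdc25c stood at +0.27, Mnat1 at +0.17, Cdc25a at +0.02 and Cdc25b at -0.02.

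**Figure D4:**
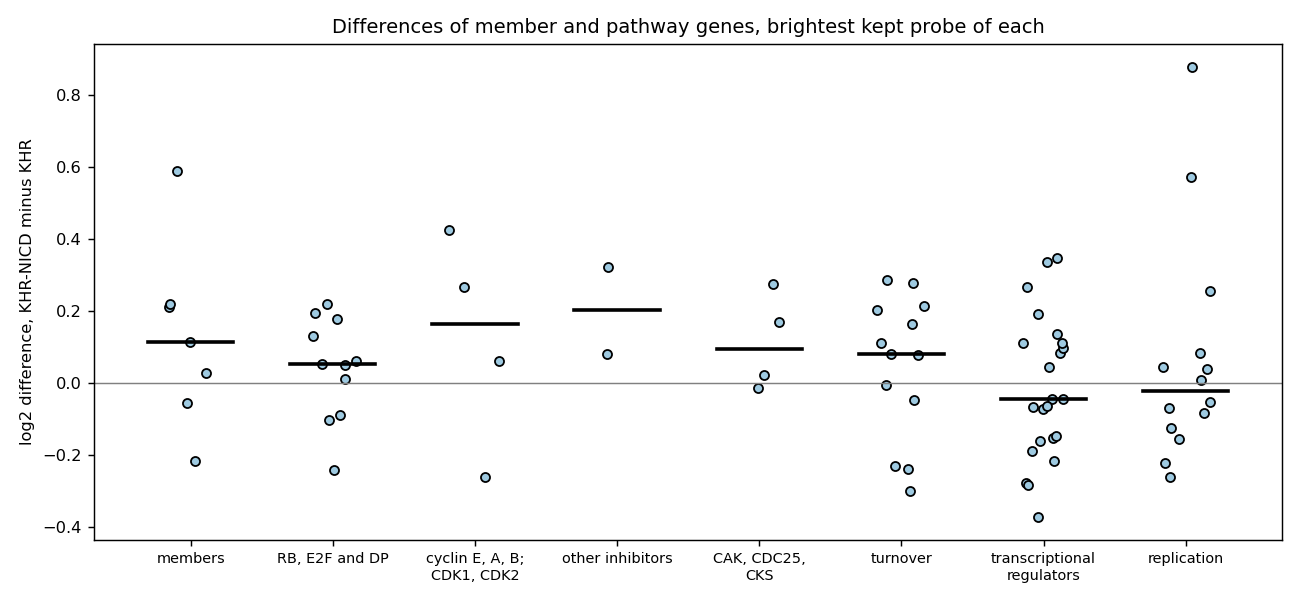
Log2 difference, KHR-NICD minus KHR (y axis), of the 7 measured member genes and the measured genes of 7 pathway lists (x axis), 1 point per gene by its brightest kept probe, with a bar at each median. No gene passed limma's test, and 6 of the 7 pathway lists have points on both sides of 0, with Mcm7 at +0.88 and Ccnd2 at +0.59 the highest.

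Of the genes whose products turn over D cyclins and CIP/KIP proteins, 13 of 17 were measured, with a median of +0.08. Ddb1 and Cul4a, parts of the CRL4 ubiquitin ligase, stood at -0.30 and -0.23, and Fbxo4, an F-box protein that binds cyclin D1, at -0.24 (limma adjusted p = 0.324, 0.362 and 0.375). Dyrk1b, a kinase that phosphorylates cyclin D1, stood at +0.29. Of the transcriptional regulators of the members 23 of 31 were measured, with a median of -0.05. Foxo1, an activator of CDK inhibitor genes, stood at -0.28 (limma adjusted p = 0.182). Tbx3, a repressor of the Arf promoter, stood at +0.34, Id1, which sequesters basic helix-loop-helix factors, at -0.29 and Smad3, which carries TGF-beta signals, at -0.19 (limma adjusted p = 0.303, 0.371 and 0.406).

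Along the Eif2s3y division, 15 of the 70 pathway genes passed, 12 higher and 3 lower, beside the 17.9% of all kept probes. Among genes named above, Ccne2 stood at +0.79, Cdk1 at +0.40, Cdc25c at +0.42 and Mnat1 at +0.29 where Eif2s3y was detected (limma adjusted p = 0.0075, 0.00304, 0.0205 and 0.0231). Cdkn1c stood at +0.90 (limma adjusted p = 0.0356) and Cdkn2d at +0.01 (limma adjusted p = 0.963). The muscle and hair keratin values given above apply to these genes too.

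For the 4 members with the smallest p between the tumour types, the 3 genes whose levels ran most alike were found over the 12 tumours after each tumour type's mean was removed. For Ccnd2 they were Zcchc17, Prf1 and Ercc6l2, with Pearson correlations of 0.926, 0.909 and 0.904. For Cdkn1a probe 1 they were Ulk1, Slc25a1 and Sprr2f, at 0.925, 0.863 and 0.863. For Ccnd1 probe 1 they were Cavin3, Rsl1d1 and Wars, at 0.961, 0.956 and 0.956. For Cdkn2c they were Dhcr7, Sostdc1 and Sort1, at 0.935, 0.928 and 0.928. These are the highest of all kept probes over only 12 tumours, which share the Eif2s3y division and the muscle content, and they are given as a description.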

How the data were processed

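Each of the 12 tumours gave 1 Illumina MouseRef-8 v2 array, read in 1 colour. GenomeStudio and Partek appear in the submitters' processing notes, with neither version nor role. The authors deposited, per the file headers, the mean bead intensity of each probe without normalization between arrays, a detection p-value against background, and the number of beads with their standard error. The second table the authors deposited holds their processed intensity and served as an alternative.

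Log2 values came from the neqc function (R 4.3.3, limma 3.58.1), which took the background from the detection p-values, added an offset of 16 and applied quantile normalization. Probes with a detection p under 0.05 on at least 6 of 12 arrays were kept (11721; 8420 named genes). By the platform annotation 23978 probes had 1 gene and 0 had several, and 1719 are unnamed here. All kept probes were fitted with lmFit and eBayes, and p-values were adjusted over all of them (Benjamini-Hochberg, 0.05). The fit between the tumour types was run on simulated data with independent errors and no Eif2s3y division or muscle content. That run cannot speak for these features of the tumours, and its outcome is not given here. The members, gene lists and tests were chosen with earlier results of these data known. Named pathway genes are up to 4 per list by smallest p between the tumour types, plus any called. Genes run alike are the 3 with the highest correlation to a member's brightest kept probe. Promoter sequences come from RefSeq (GRCm38.p6); the files name no build. The number of arrays limits the precision. Alternatives changed the background correction, normalization, probe filter, probe summary, variance model, array weights, replicate block, threshold, covariates and tumours included.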

Additional observations from a re-analysis of the deposited data

How the results depend on the processing

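The fit of the report called 8 probes between the tumour types. The count was 14 with no background correction, 14 with an offset of 50, 31 (3 higher, 28 lower) with median centring, which moved the median difference of all probes to -0.08, 13 with detection on all 12 arrays, 17 with 1 probe per gene, 22 with the mean of a gene's probes, 15 with an intensity trend, 14 with a robust fit, 125 with array weights, 91 at an adjusted p of 0.1 and 1 at 0.01. It was 238 with Eif2s3y detection, 115 with the muscle score, 182 with both and 0 with the basal keratinocyte score as covariates, 1 in the tumours without and 0 in those with Eif2s3y alone, and 1 to 17 when each tumour was left out, with 1 without KHR tumour 3 or KHR-NICD tumour 2, 2 without KHR tumour 6 and 17 without KHR tumour 1. Deviations of same-numbered tumours correlated from -0.20 to 0.44. They stood at -0.02, 0.25 and 0.44 where both tumours shared their Eif2s3y status and at -0.20, -0.18 and -0.17 where they did not. Without a comparison to differently numbered tumours, these values cannot decide whether the replicate numbers pair the tumours. The replicate block gave 0 calls between the tumour types and 0 of 13 member probes along the Eif2s3y division. Member probes called between the tumour types went from 0 to 1, Ccnd2 higher, with array weights, at an adjusted p of 0.1, and with Eif2s3y detection, the muscle score or both as covariates. The Ccnd2 difference ran from 0.46 to 0.65 over all 33 alternatives. Pathway genes went from 0 to 1, Cdk1, with Eif2s3y detection alone or with the muscle score. Members called along the Eif2s3y division went from 6 to 3 with 1 probe per gene or the mean of a gene's probes, both of which test 1 value per gene, to 0 with the muscle score, to 4 with no filter or at an adjusted p of 0.01, to 7 with no background correction, an offset of 50, median centring or an intensity trend, to 8 at an adjusted p of 0.1, and to between 4 and 8 when each tumour was left out. Members called for the interaction, for which alternatives were chosen after seeing the data, went from 0 to between 0 and 1 when each tumour was left out.

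Signs turned between the tumour types for Ccnd3 probe 1 (-0.0981 with median centring, -0.00806 with array weights, -0.0145 in the tumours with Eif2s3y alone), for Ccnd3 probe 2 (-0.132 with array weights, -0.0152 with the basal keratinocyte score, -0.176 in the tumours with Eif2s3y, and from -0.0695 to 0.148 when each tumour was left out), and for Cdkn2b (0.0474 with array weights, and from -0.113 to 0.0117 when each tumour was left out). Array weights also turned Ccnd1 probe 1 to -0.0292 and Cdkn2a to -0.204 and -0.189, and in the tumours with Eif2s3y alone Ccnd1 probe 3 stood at -0.0177 and Cdkn2c at -0.0332. Along the Eif2s3y division, Ccnd2 turned to -0.0361 with median centring, to -0.171 with the muscle score and ran from -0.00663 to 0.134 when each tumour was left out, Ccnd3 probe 1 turned to -0.0469 with median centring, Cdkn1a probe 2 to 0.0123 with the replicate block, and Cdkn1a probe 1 ran from -0.0320 to 0.106 when each tumour was left out. None of these turned values was past the threshold. The cause of these changes was not tested. Array signal limits the dim probes: Cdk6, Cdkn1b and 1 probe each of Ccnd3 and Cdkn2c stood at background on most or all arrays.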
